A study of Mus musculus with 6 samples.

Results

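The genes examined here are 9 members of the p53 pathway, namely Trp53, Cdkn1a, Mdm2, Ccng1, Bax, Bbc3, Trp53inp1, Phlda3 and Bcl2l1, out of 18138 gene symbols on the array. Every probe listed under one of these symbols was taken, whatever its signal, which gave 21 of the 25697 probes of the table. The transcriptome was that of whole brain from male mice at postnatal day 6, of strain FVB by the labels and FVB/N by the study. RNA was hybridized to Illumina MouseRef-8 v2.0 bead arrays, with 3 arrays in the hSRY-OFF group and 3 in the hSRY-ON group, each from a separate mouse. Both groups carried the Signalox-hSRY transgene at the H11 locus. In hSRY-OFF mice it was unrecombined and the CAG promoter drove the red fluorescent protein DsRed2, whereas in hSRY-ON mice Cre recombinase had removed that cassette, so that the CAG promoter, which is active in nearly all cells, drove FLAG-tagged human SRY together with EGFP. The hSRY-ON mice were born to Ddx4-Cre mothers, whose oocytes supplied the recombinase, and those used for the arrays did not themselves inherit the Ddx4-Cre transgene. The 2 groups therefore differed in their fluorescent reporter as well as in SRY, and the transgene itself was not measured here. The mothers and litters of the hSRY-OFF mice are not stated, so that a difference of mother or litter cannot be told apart from one of SRY.

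The transcription factor p53, the product of Trp53, is stabilised by DNA damage and other stresses and then activates a set of target genes. Among its targets, Cdkn1a encodes the cyclin-dependent kinase inhibitor p21, which halts the cell cycle, and Mdm2 encodes the ubiquitin ligase that degrades p53 and closes a negative feedback loop. Bax and Bbc3 (also called Puma) promote cell death at the mitochondrion, where Bcl2l1, which encodes Bcl-xL, opposes them. The level of p53 is set largely through degradation of the protein, so that the activity of the pathway is usually read from its target transcripts and not from the Trp53 transcript. The comparison asked whether an arrest of the cell cycle by p53 is visible among these transcripts in hSRY-ON brain.

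p53 binds DNA at a pair of decamers, each made of 3 purines, a C, 2 bases that are A or T, a G and 3 pyrimidines. The consensus decamer reads the same on both strands. Exact matches to it were searched in windows from 250 bases before to 50 bases after each annotated transcription start (RefSeq, GRCm38.p6). Windows were available for 8 of the 9 genes (13 windows in all), with Trp53inp1 the gene without one. A match was found in a window of 5 of these 8 genes (62.5%), against 2582 of 27025 genes (9.55%) in the whole promoter table, and the 5 were Trp53, Cdkn1a, Mdm2, Ccng1 and Bax. The members include textbook p53 targets, so this share describes the genes and is not a finding of the arrays. The windows of Ccng1 and Cdkn1a are shown whole because the results turn on these genes, and the stretches around the decamers of Mdm2, Bax and Trp53 are shown for comparison, with the decamers in capitals and each sequence read 5′ to 3′ along the gene's own strand.
Ccng1, chr11:40755237-40755536, strand minus: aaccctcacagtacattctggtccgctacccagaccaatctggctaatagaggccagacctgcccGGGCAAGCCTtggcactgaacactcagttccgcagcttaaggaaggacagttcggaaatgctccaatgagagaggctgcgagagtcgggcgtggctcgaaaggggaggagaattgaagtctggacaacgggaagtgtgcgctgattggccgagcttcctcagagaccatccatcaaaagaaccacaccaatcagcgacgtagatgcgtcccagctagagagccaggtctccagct
Cdkn1a, chr17:29090729-29091028, strand plus: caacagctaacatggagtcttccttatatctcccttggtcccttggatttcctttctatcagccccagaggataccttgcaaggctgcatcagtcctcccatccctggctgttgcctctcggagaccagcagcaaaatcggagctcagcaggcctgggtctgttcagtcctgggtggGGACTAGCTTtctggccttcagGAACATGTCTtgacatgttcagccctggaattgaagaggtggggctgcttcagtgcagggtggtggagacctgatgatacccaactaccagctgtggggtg
Mdm2, chr10:117710910-117710969, strand minus: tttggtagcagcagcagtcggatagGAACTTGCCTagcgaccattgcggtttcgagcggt
Bax, chr7:45467065-45467124, strand minus: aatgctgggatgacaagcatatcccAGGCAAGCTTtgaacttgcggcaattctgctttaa
Trp53, chr11:69580259-69580318, strand plus: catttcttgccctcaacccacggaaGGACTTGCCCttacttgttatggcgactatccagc

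In Ccng1 the decamer lay from position -185 to -176 relative to the transcription start. Cdkn1a had a pair of decamers, at -73 to -64 and at -51 to -42 of its upstream start. With exact matches only and a gap of at most 13 bases between decamers, such a pair occurred in 20 of the 27025 genes (0.074%). Cdkn1a was the only member among them. Near matches were not counted, for example agacctgccc directly before the Ccng1 decamer and tgacatgttc directly after the downstream Cdkn1a decamer. A lone decamer here therefore does not mean that a less strict pair is absent. The decamers of Mdm2, Bax and Trp53 began at -186, -201 and -75. No match in the windows of Bbc3, Phlda3 and Bcl2l1 says only that these letters are not in these windows.

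The signals of the members were then compared between the groups. Of the 21 probes, 19 were detected above background on all 6 arrays (detection p-value under 0.05) and were tested, and every gene kept at least 1 tested probe. The remaining 2 probes, ILMN_1229882 of Mdm2 and ILMN_2971479 of Trp53inp1, were below background on all 6 arrays and are given no fold change. Across the 14215 probes tested on the array, 308 (2.17%) were called at an adjusted p under 0.05 in limma, with 120 (0.844%) higher and 188 (1.32%) lower in hSRY-ON. Among the 19 member probes, 1 was called, a Ccng1 probe that was lower in hSRY-ON, and none was called higher. At an unadjusted p under 0.05 the count was 7 of 19 (36.8%), with 4 higher and 3 lower, against 20.9% of all tested probes (10.1% higher and 10.9% lower). The 3 values of a group lay wholly apart from those of the other group for 8 member probes (42.1%), 4 higher and 4 lower, against 27.7% of all tested probes (13.5% higher and 14.2% lower). Probes of 1 gene read the same transcripts, so that the 19 probes are not 19 separate observations, and the 7 probes at an unadjusted p under 0.05 belonged to Ccng1, Cdkn1a and Bbc3 only. The median log2 fold change over the 19 probes was 0.09, beside 0.0048 over all tested probes. Whole brain was measured, so that fewer cells of a type and less RNA per cell cannot be told apart.

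**Figure D1:**
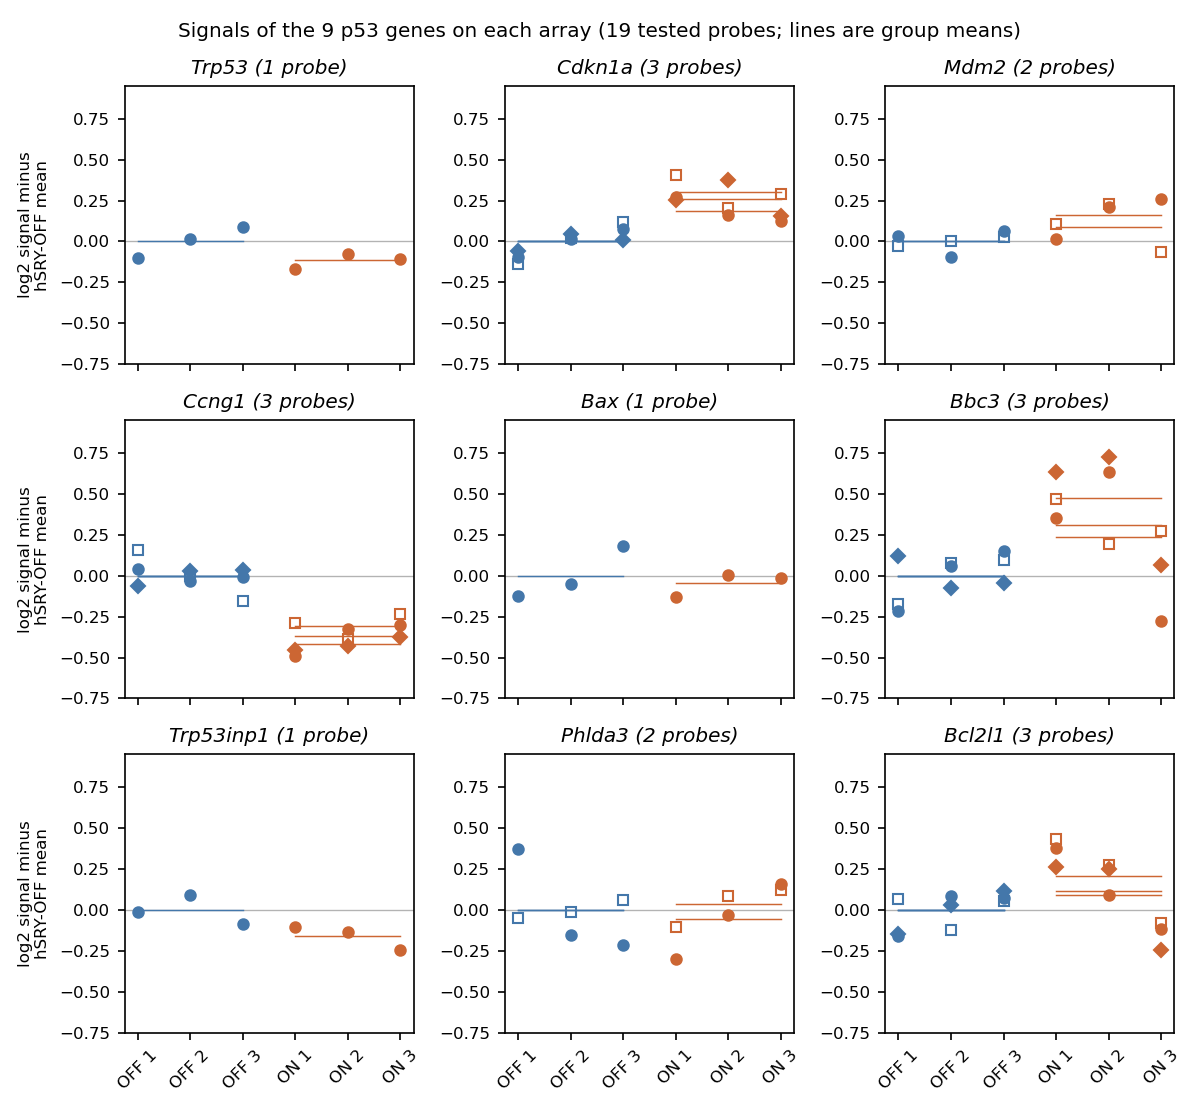
Normalized log2 signal of each tested probe of the 9 genes on each array, minus that probe's hSRY-OFF mean (circles, open squares and diamonds are the probes of a gene in order of their identifier, horizontal lines are group means, blue is hSRY-OFF and orange hSRY-ON). All 3 Ccng1 probes are lower and all 3 Cdkn1a probes higher on every hSRY-ON array, while hSRY-ON array 3 is the lowest hSRY-ON array for 2 of the 3 Bbc3 probes and all 3 Bcl2l1 probes.

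Ccng1, which encodes cyclin G1, a target of p53 that takes part in the feedback on Mdm2, was lower in hSRY-ON at each of its 3 probes. For probe ILMN_2710229 the hSRY-OFF arrays had normalized log2 signals of 9.10, 9.20 and 9.20, in the order of their replicate numbers as everywhere below, whereas the hSRY-ON arrays had 8.71, 8.74 and 8.79. The groups did not overlap, and the distance between them was several times the spread within either. The probe fell by 0.42 on the log2 scale (SE 0.076, 95% interval -0.60 to -0.24, limma adjusted p = 0.0462), which left 0.749 of the hSRY-OFF signal. Its deposited intensity, before any correction, was 782, 727 and 709 in hSRY-OFF and 583, 555 and 571 in hSRY-ON, so that the separation was already present in the table as deposited.

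The brightest Ccng1 probe, ILMN_2500276, read 10.78, 10.70 and 10.73 in hSRY-OFF and 10.25, 10.41 and 10.44 in hSRY-ON. Its log2 fold change of -0.37 (SE 0.084) was close to that of the called probe but did not pass, at an adjusted p of 0.0715 in limma. Probe ILMN_2702233 read 8.14, 7.98 and 7.83 in hSRY-OFF and 7.69, 7.59 and 7.75 in hSRY-ON, a log2 fold change of -0.30 (SE 0.10, limma adjusted p = 0.158). In both probes every hSRY-ON array lay below every hSRY-OFF array. The call of ILMN_2710229 stood close to the threshold and was lost without any one of the 6 arrays, with limma adjusted p-values from 0.0534 to 0.147 and log2 fold changes from -0.45 to -0.40. It was also lost with no filter on dim probes (adjusted p = 0.0788) and with the replicate number as a block in the fit (adjusted p = 0.110). ILMN_2500276 passed under 4 of the other settings, with its lowest adjusted p, 0.00391, under a trended and robust prior.

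Cdkn1a, the p21 gene, had higher signals in hSRY-ON at all 3 probes, none of which passed the threshold. Probe ILMN_2846775 read 9.78, 9.94 and 10.03 in hSRY-OFF and 10.32, 10.12 and 10.21 in hSRY-ON, a log2 fold change of 0.30 (SE 0.10, 95% interval 0.06 to 0.54, limma adjusted p = 0.155). Probe ILMN_2846776 read 9.52, 9.62 and 9.59 in hSRY-OFF and 9.83, 9.95 and 9.73 in hSRY-ON, a log2 fold change of 0.26 (SE 0.088, limma adjusted p = 0.156). The brightest probe, ILMN_2634083, read 10.94, 11.05 and 11.11 in hSRY-OFF and 11.30, 11.20 and 11.16 in hSRY-ON, a log2 fold change of 0.19 (SE 0.085, limma adjusted p = 0.270). No probe overlapped between the groups, although for ILMN_2634083 the highest hSRY-OFF array and the lowest hSRY-ON array were only 11.11 and 11.16. The intervals of the 3 probes reached from 0.989 to 1.45 times the hSRY-OFF level. ILMN_2846775 passed without background correction (adjusted p = 0.0408) and with a trended and robust prior (adjusted p = 0.0364), and in none of the other refits of this probe.

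**Figure D2:**
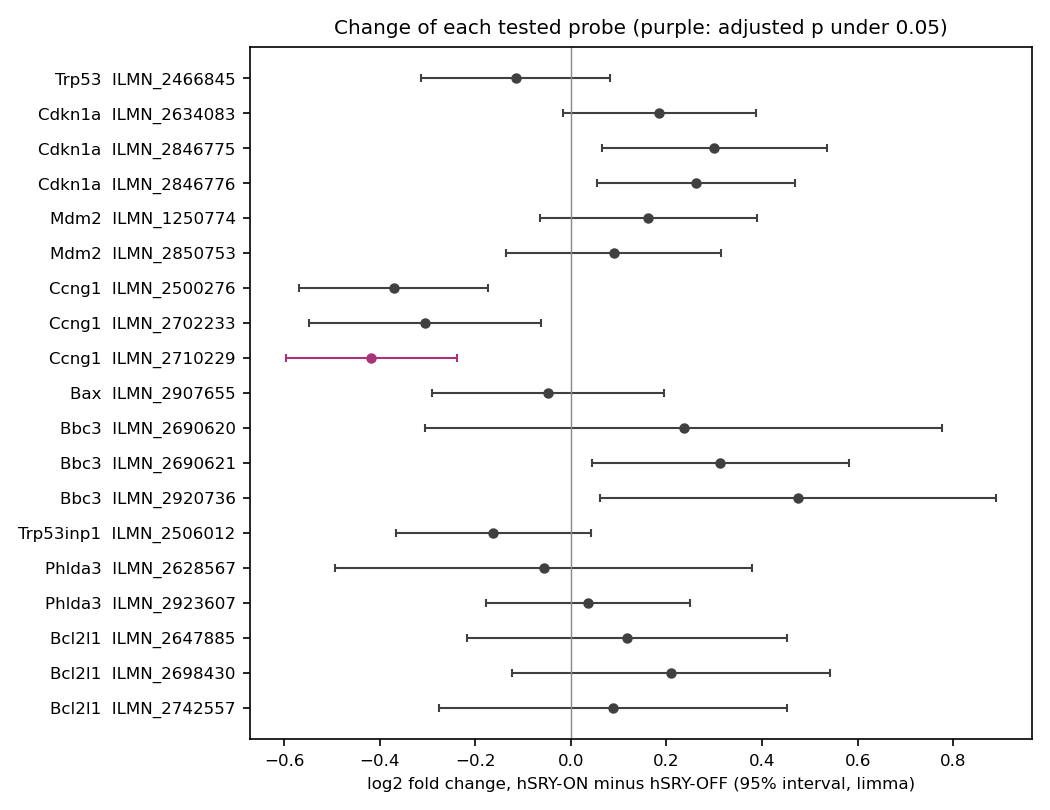
Log2 fold change (hSRY-ON minus hSRY-OFF) of each of the 19 tested probes with its 95% interval from limma, not adjusted for the number of probes, with the called probe in purple. The intervals of Ccng1 lie wholly below 0, those of 2 Cdkn1a probes and 2 Bbc3 probes wholly above it, and all others include 0.

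Trp53 itself and its negative regulator Mdm2 were next examined. The Trp53 probe read 9.52 to 9.72 in hSRY-OFF and 9.46 to 9.55 in hSRY-ON, with overlapping groups and a log2 fold change of -0.12 (SE 0.084, 95% interval -0.31 to 0.08, limma adjusted p = 0.476). Mdm2 read 10.08 to 10.24 in hSRY-OFF and 10.19 to 10.43 in hSRY-ON at ILMN_1250774, and 10.11 to 10.17 against 10.08 to 10.37 at ILMN_2850753. Its log2 fold changes were 0.16 (SE 0.096, limma adjusted p = 0.383) and 0.09 (SE 0.095, limma adjusted p = 0.637), both with overlapping groups. Taking both probes, the upper ends of the intervals were 1.31 and 1.24 times the hSRY-OFF level.

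Among the members that act on the mitochondrion, Bbc3 had the largest log2 fold changes, none of which passed in the fit of all arrays as described. Its brightest probe, ILMN_2920736, read 9.69, 9.49 and 9.52 in hSRY-OFF and 10.20, 10.29 and 9.63 in hSRY-ON, a log2 fold change of 0.48 (SE 0.18, 95% interval 0.06 to 0.89, limma adjusted p = 0.186). hSRY-ON arrays 1 and 2 lay above all hSRY-OFF arrays, but hSRY-ON array 3 lay within their range. Without hSRY-ON array 3 the log2 fold change was 0.68 and the adjusted p 0.0320, whereas leaving out any other array gave an adjusted p of 0.256 to 0.377. The probe also passed without background correction (adjusted p = 0.0347) and with a trended and robust prior (adjusted p = 0.0482). hSRY-ON array 3 also stood apart from the other 5 arrays on the second principal component of all tested probes, at -22.2 against 0.0453 to 8.92, and the part of this in the Bbc3 values was not tested. The dimmer probes read 6.25, 6.51 and 6.53 in hSRY-OFF against 6.90, 6.62 and 6.71 in hSRY-ON for ILMN_2690621 (log2 fold change 0.31, SE 0.11, limma adjusted p = 0.179), and 5.89, 6.17 and 6.26 against 6.46, 6.74 and 5.83 for ILMN_2690620 (log2 fold change 0.24, SE 0.23, limma adjusted p = 0.600). ILMN_2690620 had its lowest reading of all 6 arrays on hSRY-ON array 3, whereas ILMN_2690621 was higher there than on any hSRY-OFF array. When 1 array was left out, the log2 fold change of ILMN_2690620 ranged from 0.038 (without hSRY-ON array 2) to 0.495 (without hSRY-ON array 3).

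Bcl2l1, the gene of the pro-survival Bcl-xL, had its lowest hSRY-ON signal on array 3 at all 3 probes. Probe ILMN_2698430 read 9.53, 9.34 and 9.51 in hSRY-OFF and 9.89, 9.73 and 9.38 in hSRY-ON, a log2 fold change of 0.21 (SE 0.14, limma adjusted p = 0.440), which ranged from 0.0977 without hSRY-ON array 1 to 0.353 without hSRY-ON array 3. The other 2 probes had log2 fold changes of 0.12 (SE 0.14, limma adjusted p = 0.683) and 0.09 (SE 0.15, limma adjusted p = 0.788). At ILMN_2647885 hSRY-ON array 3 read 7.94 beside 8.43 and 8.15 on hSRY-ON arrays 1 and 2, and at ILMN_2742557 it read 7.52, below all the hSRY-OFF arrays, which lay between 7.62 and 7.88. The log2 fold change of ILMN_2742557 ranged from 0.00306 to 0.256 when 1 array was left out, the highest without hSRY-ON array 3. Bax, which permeabilises the mitochondrial membrane, read 10.49 to 10.80 in hSRY-OFF and 10.49 to 10.62 in hSRY-ON, with a log2 fold change of -0.05 (SE 0.10, 95% interval -0.29 to 0.20, limma adjusted p = 0.836).

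**Figure D3:**
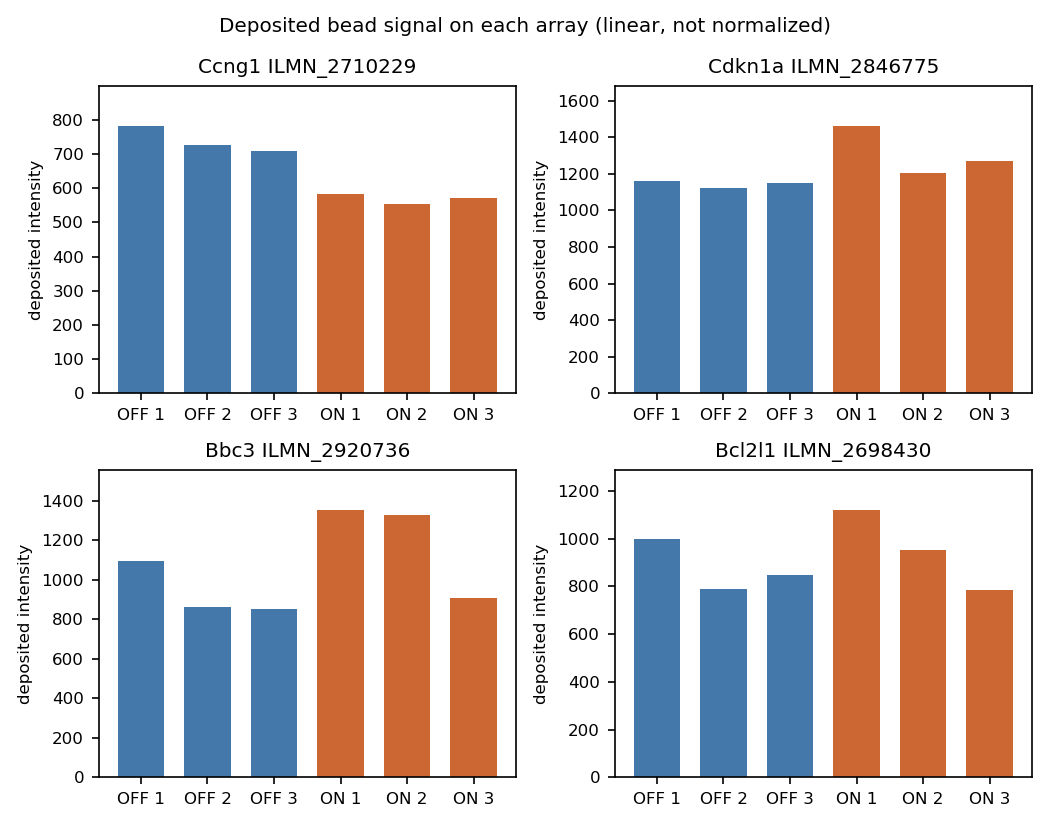
Deposited bead signal intensity (linear scale, not normalized, not background corrected) on each array for 1 probe each of Ccng1, Cdkn1a, Bbc3 and Bcl2l1 (blue hSRY-OFF, orange hSRY-ON). Ccng1 lies at 709 to 782 in hSRY-OFF and 555 to 583 in hSRY-ON, and Bbc3 and Bcl2l1 are lower on hSRY-ON array 3 than on hSRY-ON arrays 1 and 2.

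The remaining members were Trp53inp1, a nuclear protein that promotes p53 activity, and Phlda3, an inhibitor of Akt signalling. Trp53inp1 read 9.03 to 9.21 in hSRY-OFF and 8.87 to 9.01 in hSRY-ON at its detected probe. The groups did not overlap, but the log2 fold change of -0.16 (SE 0.086) did not pass, at an adjusted p of 0.330 in limma. Phlda3 had log2 fold changes of 0.04 (SE 0.090, limma adjusted p = 0.860) and -0.06 (SE 0.18, limma adjusted p = 0.895) at its 2 probes, with overlapping groups at both.

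The wider pathway was described with 5 lists of genes other than the members. A list of 30 further p53 targets had 28 tested probes of 23 genes, of which none was called in limma, 10 had an unadjusted p under 0.05 (35.7%, beside 20.9% of all tested probes), and the direction was divided, with 5 of these higher and 5 lower. The median log2 fold change of the list was 0.06. Its highest probe was ILMN_2902979 of the death receptor Fas, which was not detected on any hSRY-OFF array and was detected on all 3 hSRY-ON arrays. The log2 signals of this probe were 5.18, 5.29 and 5.12 against 6.31, 5.99 and 5.60 (limma adjusted p = 0.0716). The hSRY-ON mean was thus at least 1.43-fold higher when each hSRY-OFF array is set at the lowest signal among its detected probes. The other Fas probes were not tested, with ILMN_2454420 below background on every array and ILMN_2479290 detected on 2 hSRY-ON arrays only. The lowest probe of the list was that of the translesion polymerase Polh, at 6.22, 6.42 and 6.46 against 5.41, 5.98 and 5.29 (limma adjusted p = 0.0717). It was detected on all 3 hSRY-OFF arrays but on only 1 hSRY-ON array. Fas entered the test through the hSRY-ON arrays alone, and the hSRY-OFF arrays alone would have let Polh in, so that their place at the ends of the list carries the filter with it.

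Of the other genes of the list, Ddb2, Xpc, Ercc5, Zmat3 and Gadd45a are given because their values stood out or bear on one another, and they were picked out after those values were seen. Ddb2 is a damage sensor of nucleotide excision repair, a pathway in which Xpc and Ercc5 also act. Ddb2 had 3 tested probes with log2 fold changes of 0.60 (SE 0.12, limma adjusted p = 0.0527), 0.60 (SE 0.16, limma adjusted p = 0.0960) and 0.37 (SE 0.080, limma adjusted p = 0.0637), and the adjusted p of the first was the lowest of the list. At ILMN_2621160 the signals were 6.32, 6.53 and 6.37 in hSRY-OFF and 6.80, 7.16 and 7.08 in hSRY-ON. The Xpc probe had a log2 fold change of 0.42 (SE 0.11, limma adjusted p = 0.0958). Neither Ddb2 nor Xpc overlapped between the groups at any tested probe, whereas Ercc5 did, with a log2 fold change of 0.13 (SE 0.11, limma adjusted p = 0.568). In the other direction, Zmat3, an RNA-binding p53 target, had a log2 fold change of -0.53 (SE 0.12, limma adjusted p = 0.0756), and the 2 probes of the growth-arrest gene Gadd45a had -0.33 (SE 0.086, limma adjusted p = 0.0940) and -0.25 (SE 0.087, limma adjusted p = 0.171).

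The list of genes that control p53 (kinases, ligases and cofactors) had 18 tested probes with a median log2 fold change of 0.0074 and none called in limma, with 1 higher and 3 lower at an unadjusted p under 0.05 (22.2%, near the 20.9% of all tested probes). Its highest probe was that of the ubiquitin ligase Rchy1 (0.42, SE 0.14, limma adjusted p = 0.156) and its lowest was of the checkpoint kinase Chek2, at 6.06, 6.16 and 5.77 against 5.24, 5.21 and 5.71 (limma adjusted p = 0.105), which like Polh was detected on all 3 hSRY-OFF arrays but on only 1 hSRY-ON array. The BCL2 family list had 17 tested probes with a median of 0.04 and none called, with 4 higher and 0 lower at an unadjusted p under 0.05 (23.5%, also near the share of all tested probes). Its highest was the pro-death Hrk (0.38, SE 0.16, limma adjusted p = 0.230), and its lowest was a probe of Bcl2 (-0.24, SE 0.12, limma adjusted p = 0.295), whose other probe lay on the opposite side (0.33, SE 0.21, limma adjusted p = 0.405). Caspases and the machinery around them had 24 tested probes with a median of -0.14 and none called, with 0 higher and 4 lower at an unadjusted p under 0.05 (16.7%). The adaptor Fadd had the lowest value (-0.33, SE 0.085, limma adjusted p = 0.0896), and all 3 probes of the DNA-repair enzyme Parp1, also picked out after its values were seen, lay below 0 without overlap, at -0.30, -0.24 and -0.17.

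**Figure D4:**
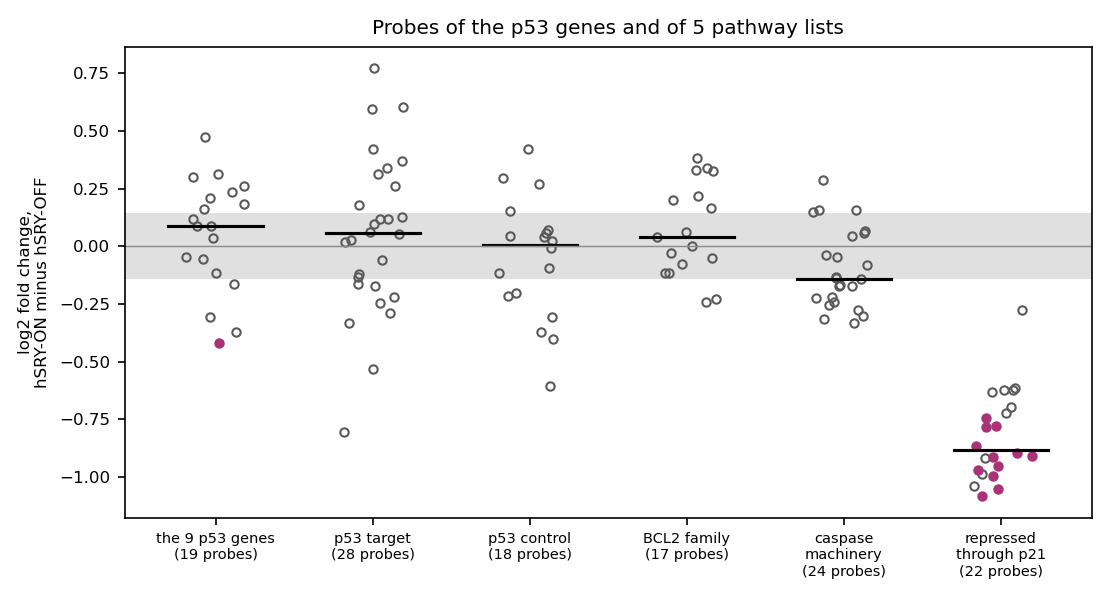
Log2 fold change (hSRY-ON minus hSRY-OFF) of every tested probe of the 9 p53 genes and of the 5 pathway lists, with called probes filled in purple, list medians as black bars and the quartiles of all tested probes as the grey band (-0.14 to 0.14). The first 5 columns straddle 0, and the cell-cycle list lies wholly below it, between -1.08 and -0.28.

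The fifth list held 20 cell-cycle genes, mostly of G2 and mitosis, that p53 is known to repress through p21 and the DREAM repressor complex. All of its 22 tested probes, of 14 genes, were lower in hSRY-ON, with a median log2 fold change of -0.88. Of these, 21 did not overlap between the groups, beside 14.2% of all tested probes that were lower without overlap. In limma 12 probes of 10 genes were called (54.5%, beside the 1.32% of all tested probes that were called lower). Cell-cycle control was named by the study itself from these arrays and proliferation genes had been seen to fall in them before the list was written, so this count is not independent evidence of its direction. The called genes were Top2a, Cdc2a (current symbol Cdk1), Plk1, Cdc20, Kif23, Birc5, Prc1, Ccnb1, Cdc25c and Bub1b. Top2a, a topoisomerase of dividing cells, fell by 1.08 on the log2 scale (SE 0.16, limma adjusted p = 0.0327), from 9.63, 9.73 and 9.41 to 8.24, 8.44 and 8.83. Cdc20, an activator of the anaphase-promoting complex, fell by 0.97, 0.91 and 0.90 at its 3 called probes (limma adjusted p = 0.0263, 0.0313 and 0.0263). Birc5, which encodes survivin, an inhibitor of apoptosis that is also a mitotic protein, fell by 0.91 (SE 0.15, limma adjusted p = 0.0360), from 9.42, 9.54 and 9.40 to 8.28, 8.49 and 8.86. The smallest difference was that of E2f1, a transcription factor of entry into S phase (log2 fold change -0.28, SE 0.091, limma adjusted p = 0.152). Plk1, Kif23 and Prc1, which act in mitosis and cytokinesis, fell by 0.997, 0.95 and 0.87 (limma adjusted p = 0.0294, 0.0313 and 0.0328). Cdc2a, Ccnb1 and Cdc25c, the kinase of mitotic entry with its cyclin and its activating phosphatase, fell by 1.05, 0.78 and 0.78 (limma adjusted p = 0.0484, 0.0479 and 0.0327), and the checkpoint kinase Bub1b fell by 0.74 (limma adjusted p = 0.0413). Without hSRY-OFF array 1, 2 or 3, or without hSRY-ON array 1 or 2, no probe of the 5 lists was called, whereas without hSRY-ON array 3 the lists together had 18 called probes. With the replicate number as a block in the fit, the lists had 0 called probes.

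These values stood beside those of Cdkn1a on the same arrays, where the p21 transcript was between 1.14 and 1.23 times its hSRY-OFF level without a call. In the promoters of the cell-cycle list, the hexamer TTTGAA (searched on both strands, its reverse being TTCAAA), which is the core of the element through which the DREAM complex acts, was present in 11 of the 15 genes with a window (73.3%), against 20.2% of all genes in the table. Among the members it was found in 1 of 8 genes, Bax, where it overlaps the p53 decamer, and among the further p53 targets in 4 of 23 (17.4%), of which 6 (26.1%) held the p53 decamer. The list was written as genes repressed through this complex, so that its share describes the choice of genes and is not a finding of the arrays. The hexamer is shown in capitals in its surroundings for 5 of the called genes.
Cdc20, chr4:118437331-118437386, strand minus: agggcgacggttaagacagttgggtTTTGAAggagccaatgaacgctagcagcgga
Plk1, chr7:122159440-122159484, strand plus: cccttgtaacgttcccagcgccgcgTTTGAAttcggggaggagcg
Kif23, chr9:61946767-61946822, strand minus: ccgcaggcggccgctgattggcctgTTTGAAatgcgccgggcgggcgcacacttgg
Prc1, chr7:80294421-80294476, strand plus: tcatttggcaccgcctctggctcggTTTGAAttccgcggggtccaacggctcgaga
Bub1b, chr2:118598226-118598260, strand plus: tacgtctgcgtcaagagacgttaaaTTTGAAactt

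The tissue and its other cell types were checked with 7 short marker lists. Of the neuronal markers, Stmn2, Syt1 and Tubb3 were detected on all arrays, while the only probe of Snap25 was below background on all of them. Astrocyte, oligodendrocyte and microglial markers were all detected (5 of 5 genes in each list). Of the 6 tested astrocyte probes 2 were called, both lower (Gfap and Aqp4), beside the 1.32% of all tested probes that were called lower, and no probe of the other marker lists was called in limma. Each list was also summed on the linear scale and put back on log2. For oligodendrocyte markers this sum was 14.39 to 14.75 in hSRY-OFF and 14.02 to 14.07 in hSRY-ON, and that of endothelial markers 12.20 to 12.39 and 11.67 to 12.03, without overlap in either. Choroid plexus markers summed to 13.87 to 14.13 and 14.17 to 14.49, also without overlap, but this sum was nearly all from Ttr (13.77 to 14.04 and 14.07 to 14.40), which did not overlap. Clic6 also lay higher without overlap (log2 fold change 0.44, limma adjusted p = 0.117), while the probes of Folr1 and Otx2 overlapped. A probe of Kl was above background on the 3 hSRY-ON arrays only and entered the test through them alone, and the other Kl probe was below background on all arrays. Neuronal, astrocyte, microglial and erythroid sums overlapped between the groups. The astrocyte sum was mostly from the bright Slc1a3 and Gja1 probes, and the median log2 fold change of the 6 astrocyte probes was -0.44, the lowest of the 7 lists. The part of these differences in the values of the p53 genes was not tested.

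The member probe with the largest change, ILMN_2920736 of Bbc3, was set against every other tested probe by the root mean square difference of their profiles over the 6 arrays, after subtraction of each probe's hSRY-OFF mean. The 5 nearest were probes of St8sia4 (0.053 on the log2 scale), B230342M21Rik (0.063), Scn1a (0.075), Slc7a3 (0.078) and 9030221M09Rik (0.080). None of the 5 was called in limma. Their log2 fold changes, from 0.43 to 0.49, lie near that of ILMN_2920736 because the probes were chosen for likeness to it. Their likeness rests on 6 arrays and describes signals alone.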

How the data were processed

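Total RNA was hybridized to MouseRef-8 v2.0 arrays. The authors deposited a linear bead signal intensity per probe and array with a detection p-value against the negative controls of the array. The table is named as not normalized. Per the labels, limma was among the tools of the submitters, and the methods of the study name TCC, which was not run here. In R 4.3.3 with limma 3.58.1, intensities were corrected by normexp with control values inferred from the detection p-values (offset 16), quantile normalized and put on the log2 scale. The 14215 probes detected (p-value under 0.05) on 3 or more of the 6 arrays entered lmFit and eBayes, two-sided and with group as the only term. After Benjamini-Hochberg adjustment over all of them, an adjusted p under 0.05 was taken as a call. Intervals are 95% and unadjusted. Arrays of a group came from separate mice, 3 in each, and this number limits the precision.

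The members and lists were chosen with earlier results of these data known. Named were all members, every called probe of the lists, the highest and the lowest probe of each list, and the 5 profiles nearest to the member probe of largest change, with 1 exception that is not reported here. Ddb2, Xpc, Ercc5, Zmat3, Gadd45a and Parp1 were added after their values were seen. List symbols absent from the table were matched through RefSeq synonyms held by a single gene. The fit was tested on simulated data. Alternatives were other background corrections, normalizations, filters and priors, array weights, a replicate block, 1 probe per symbol and leaving out each array. Promoter windows came from RefSeq (GRCm38.p6). Probe sequences were not used. Plots used matplotlib 3.10.9 (Python 3.11.15).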

Additional observations from a re-analysis of the deposited data

How the results depend on the processing

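The count of 1 called member probe became 4 without background correction and with a trended and robust prior, 2 with normexp on the signals (offset 50) or with a detection p-value under 0.01 on all arrays, and 0 with no filter on dim probes, with the replicate block or with 1 probe per symbol. It ranged from 0 to 1 when 1 array was left out, and the single call without hSRY-ON array 3 was of Bbc3. Over all tested probes the count of 308 became 1317 without background correction, 860 with normexp on the signals, 123 with no filter, 705 with the stricter detection, 1447 with the trended and robust prior, 480 with array weights and 0 with the replicate block (2906 at an unadjusted p under 0.05 in limma), with a range of 0 to 417 without 1 array. The 12 called probes of the lists became 27, 24, 20, 29, 20 and 0 without background correction, with normexp on the signals, with the stricter detection, with the trended and robust prior, with array weights and with the replicate block, with a range of 0 to 18 without 1 array.

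The replicate numbers are shared by the groups, but same-numbered arrays deviated together only weakly (correlations of 0.040, 0.029 and 0.025 over tested probes), so the numbers were not taken as pairs. Each array nevertheless correlated best with its own number. With the replicate block, the Ccng1 probe ILMN_2710229 had an adjusted p of 0.110. The direction of every member probe was kept in all 169 refits with other processing. Of 114 refits without 1 array, 5 turned the direction, all of probes that were not called, with log2 fold changes from -0.11 to 0.0424 for Bax, from -0.012 to 0.235 for Bcl2l1 ILMN_2647885, from -0.00803 to 0.105 for Phlda3 ILMN_2923607 and from -0.166 to 0.127 for Phlda3 ILMN_2628567, so that these have no settled direction. Fas, Polh and a probe of Chek2 were not detected on every array, so that their levels lie near background.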

Other observations

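Relatives of the members were looked up after the first results. Trp53inp2, which acts in autophagy and is the paralog of Trp53inp1, fell by 0.56 on the log2 scale (SE 0.080, limma adjusted p = 0.0313), from a mean normalized signal of 11.03 ± 0.07 to 10.47 ± 0.06 (log2 scale, ± SD, n = 3 arrays per group), while the Trp53inp1 probe had a log2 fold change of -0.16 that did not pass. The difference between the paralogs was not tested. Ccng2, the paralog of Ccng1, was below background on all 6 arrays at its only probe, so that the call of Ccng1 has no counterpart there. Phlda1, a relative of Phlda3, had a log2 fold change of -0.16 (SE 0.076, limma adjusted p = 0.279) without overlap between the groups. Cdkn1c, which encodes p57, a kinase inhibitor of the same family as p21, read 12.14 ± 0.10 in hSRY-OFF and 12.16 ± 0.09 in hSRY-ON (n = 3 arrays per group), a log2 fold change of 0.02 (SE 0.091, limma adjusted p = 0.915). Of the 3 probes of Cdkn1b, the p27 gene, none was detected on more than 1 array. Trp53i11, Trp53rk, Trp53bp2 and Bcl2l12 were looked up as well. Their tested probes had log2 fold changes from -0.48 to 0.14, none called in limma, so that Trp53inp2 was the only relative called.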
